A study of Mus musculus with 12 samples.

Results

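The zinc finger gene cluster of distal mouse chromosome 2 was examined in liver RNA from mice lacking neurotensin and their wild-type littermates. Its members were chosen by position, by symbol and by their summed counts. They begin inside a fixed window near the end of chromosome 2, carry a symbol starting with Zfp or Gm, and had 10 or more expected counts over the 12 livers together. The members run from base 174643534 to base 178078476 (build GRCm38). This gave 48 members among the 48795 genes listed. The window held 98 genes, of which 89 had such a symbol, and 41 of these fell under the minimum, 28 of them with no counts in any liver. The members nearest to the minimum were Zfp967 with 11.2 summed counts, Gm14401 with 11.4 and Gm11008 with 14.24, and the nearest genes left out were Gm1980 with 9.57, Gm14429 with 9 and Gm14411 with 8.53. Zfp970 and Gm14403 were picked out of the cluster with earlier results of these data known.

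The study asked how neurotensin, a gut peptide released after a fatty meal, acts on the liver. RNA was sequenced from the whole liver of 12 female mice aged 4 months and kept on chow, with 3 mice in each of 4 groups. Of the 6 mice that had food, 254, 257 and 323 were labelled Nts+/+ and 277, 303 and 319 were labelled Nts-/-. Of the 6 that went 22 h without it, 265, 282 and 322 were labelled Nts+/+ and 284, 290 and 295 were labelled Nts-/-. The mice were littermates from heterozygous parents, and the deletion was present in the whole body, so it was not restricted to the gut or the liver. Each library was 1 mouse, and the p-values measure the spread between mice. The libraries held between 21999647 and 45273069 expected counts.

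The targeted gene went against the labels. Nts had 0 counts in each of the 6 libraries labelled Nts+/+, and the 6 libraries labelled Nts-/- had 46, 40, 15, 12, 4 and 18 counts. The genotype is therefore given as labelled, and every direction drawn between genotypes rests on those labels. The hepatocyte markers, which include albumin, summed to between 115538 and 150096 CPM (counts as a rate of the library total, scaled with TMM, the trimmed mean of M values) in all 12 livers. The 5 pancreas markers summed to between 0.0949 and 0.443 CPM. Of these 5, 3 were at 0 in every liver, namely Ctrb1, Pnlip and Cpa1.

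Many zinc finger genes of this kind encode KRAB zinc finger proteins, in which an array of C2H2 zinc fingers binds DNA and a KRAB domain recruits the corepressor TRIM28. TRIM28 in turn brings in histone methyltransferases and heterochromatin proteins, and many such proteins silence transposable elements. KRAB zinc finger genes multiplied by tandem duplication, so that neighbours in a cluster are often near-identical in sequence. The distal part of mouse chromosome 2 holds such a cluster, in which most genes are named only as predicted genes. For most of the members described here no individual function is known, and they are ordered below by how they are related in sequence and by how they behaved.

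The promoters show how close these copies are. RefSeq promoters (GRCm38.p6, from 250 bases before to 50 bases after the annotated start, 300 bases in all) were found for 28 of the 48 members by symbol or older symbol. Over the 378 pairs of these promoters the median identity was 76.2%, with a range from 46% to 100%. Identity was taken over the whole alignment with gaps counted as differences, so annotated starts that are shifted between copies lower it. These 28 promoters were searched for the longest stretch that most of them carry, which fixed a high count in advance. The search gave a run of 54 bases, present without a mismatch in 24 of the 28. It occurred in 30 of the 32851 promoters of the table, or 0.0913%, all inside the window, and these belonged to 25 members and to 2210418O10Rik, a neighbour with another kind of symbol. Gm14393, Gm4631, Zfp931 and Zfp972 did not carry it at the start used here. The run contains the CCAAT box, a common promoter element, in the form CCAAT. These letters, searched on both strands, were in 28 of the 28 member promoters and in 37.4% of all promoters in the table.

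Promoters are printed 5′ to 3′ for the genes on which the results below turn, in lower case with the shared run in capitals. Zfp970 and Gm14403 are the members with the smallest genotype p-values in fasted and averaged livers, Gm14440 stands for the pair Gm14440 and Gm14288, and Gm2026 stands for Gm2026 and Gm14434, whose promoters are identical. All 4 are on the plus strand.
Zfp970, chr2:177464492-177464791: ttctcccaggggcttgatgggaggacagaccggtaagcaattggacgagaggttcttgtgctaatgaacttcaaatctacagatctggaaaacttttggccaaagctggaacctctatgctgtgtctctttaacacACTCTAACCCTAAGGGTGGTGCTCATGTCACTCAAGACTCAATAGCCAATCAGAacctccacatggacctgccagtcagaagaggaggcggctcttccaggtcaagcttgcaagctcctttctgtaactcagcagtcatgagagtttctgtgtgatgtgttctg
Gm14403, chr2:177497976-177498275: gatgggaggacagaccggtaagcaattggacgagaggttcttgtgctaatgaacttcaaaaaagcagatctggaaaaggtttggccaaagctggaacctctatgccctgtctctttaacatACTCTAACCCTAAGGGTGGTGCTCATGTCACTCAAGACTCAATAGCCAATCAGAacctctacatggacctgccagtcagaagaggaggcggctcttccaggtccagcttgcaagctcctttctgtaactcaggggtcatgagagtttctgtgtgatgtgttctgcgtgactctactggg
Gm14440, chr2:175274875-175275174: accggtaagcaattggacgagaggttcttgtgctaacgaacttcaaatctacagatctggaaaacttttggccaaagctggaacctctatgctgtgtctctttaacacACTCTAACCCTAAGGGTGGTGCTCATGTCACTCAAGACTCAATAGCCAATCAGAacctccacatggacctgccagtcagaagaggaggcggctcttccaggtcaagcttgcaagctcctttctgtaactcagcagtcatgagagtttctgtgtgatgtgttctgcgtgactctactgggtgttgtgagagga
Gm2026, chr2:175965105-175965404: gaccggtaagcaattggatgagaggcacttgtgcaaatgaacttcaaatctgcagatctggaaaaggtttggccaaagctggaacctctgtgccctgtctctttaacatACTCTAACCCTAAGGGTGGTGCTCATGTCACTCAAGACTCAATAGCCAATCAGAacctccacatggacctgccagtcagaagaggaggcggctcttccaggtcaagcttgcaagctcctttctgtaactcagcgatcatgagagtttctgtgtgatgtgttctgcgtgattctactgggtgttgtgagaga
The shared run lay from base -114 to base -61 relative to the annotated start in Zfp970, from -129 to -76 in Gm14403, from -142 to -89 in Gm14440 and from -141 to -88 in Gm2026. The promoters of Zfp970 and Gm14403 were 86.3% identical with gaps counted as differences, their shared runs lying at unlike distances from the start. That of Gm14288, on the minus strand at chr2:175800989-175801288, shared an unbroken run of 299 bases with that of Gm14440. The promoter of Gm2026 was identical over its 300 bases to those of Gm14434, Gm14308 and Gm4724.

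The same likeness held within the transcripts, where it decides whether a read can be placed. Of 48 members, 47 could be matched by Ensembl identifier to a newer annotation (GENCODE vM39, on another build, used here for transcript sequence only). In a median of 75.5% of their stretches of 75 bases (range 0% to 100%), the same stretch was also present in a transcript of another gene, and 30 members were over 50%. The stretch length was chosen here, since the read length is not given in the sources used here. Gm14434 was at 100%, Gm14288 at 99.7%, Gm2026 at 95.9%, Gm14440 at 85.7%, Zfp970 at 42.4% and Gm14403 at 8.86%. Only 5 members were under 10%, namely Gm14403, Gm14412, Zfp931, Gm14443 and Zfp831. The expected counts deposited by the authors split reads of uncertain origin between genes, and 83.7% of the members' values above 0 were not whole numbers, against 21.6% over all genes with counts, with no tolerance around whole numbers. Gm11007 and Gm2007 held identical values in all 12 livers. Values of single members with high sharing are therefore uncertain, and sums over near-identical members are given beside them.

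The cluster as a whole was expressed at a low and even level. The 48 members together took between 75.7 and 107.9 CPM in single livers, a 1.43-fold range. Their sum was 92.1 ± 13.8 CPM (SD, n = 3) in Nts+/+ fed livers, 92.3 ± 14.0 in the fed livers labelled Nts-/-, 95.9 ± 3.06 in Nts+/+ fasted livers and 81.1 ± 7.09 in the fasted livers labelled Nts-/-. In fed livers the 2 genotypes differed by 0.0023 on the log2 scale, less than the spread between mice. In fasted livers the sum was lower by genotype, with a log2 ratio of -0.24, and all 3 libraries labelled Nts-/- (75.7, 89.1 and 78.5 CPM) lay below all 3 Nts+/+ libraries (99.4, 94.5 and 93.9 CPM). Zfp970 and Gm14403, picked out with earlier results known, are part of this sum. Together they averaged 16.3 CPM in Nts+/+ and 7.21 CPM in Nts-/- fasted livers, so much of the difference lies in these 2 genes. Per mouse they took 19.7, 11.8 and 17.2 CPM in Nts+/+ and 6.73, 7.49 and 7.42 CPM in Nts-/- fasted livers. With these 2 genes left out of the sum, the fasted groups overlapped, mouse 290 lying above mice 265 and 322. No p-value was computed for the sum of all 48 members.

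Of the 48 members, 32 had enough counts to be tested, among 13812 genes tested in all. The other 16 averaged at most 0.270 CPM, where 3 counts in 1 library correspond to between 0.0709 and 0.142 CPM. CPM is not corrected for gene length, so the levels are compared between livers and not between genes. Gm4631 varied least of the tested members, with 13.9, 10.4 and 14.5 CPM in Nts+/+ fed, 11.1, 14.7 and 12.2 in Nts+/+ fasted, 15.5, 14.3 and 13.9 in Nts-/- fed and 13.1, 10.6 and 9.97 in Nts-/- fasted livers. The 2 genotypes overlapped in both feeding states, and its log2 difference by genotype averaged over feeding states was -0.0076 (SE 0.11).

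Zfp931 (chr2:178067695-178078476), with 5.67% of its stretches shared, is a member whose reads can nearly all be placed. Its values were 2.62, 2.76 and 5.05 CPM in Nts+/+ fed, 3.78, 5.68 and 3.14 in Nts-/- fed, 4.08, 3.77 and 3.34 in Nts+/+ fasted and 3.62, 2.90 and 2.98 in Nts-/- fasted livers. Its groups overlapped in both feeding states, and its averaged difference by genotype was 0.022 (SE 0.19, adjusted p = 0.986). Gm14326 and Gm14327 also overlapped in both states, with averaged differences of 0.03 (SE 0.15) and -0.37 (SE 0.30). Without mouse 265 that of Gm14327 was -0.022. Gm4724, one of the copies with the promoter of Gm2026, ranged from 0.97 to 4.17 CPM and differed by -0.47 (SE 0.48) in fed livers, but by -0.015 without mouse 323 and by -0.81 without mouse 277.

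Zfp970 (ENSMUSG00000078866, chr2:177464733-177478129) encodes a C2H2 zinc finger protein. It was measured at 12.3, 7.11 and 11.2 CPM in the Nts+/+ fasted livers 265, 282 and 322, and at 4.63, 5.41 and 4.51 CPM in the Nts-/- fasted livers 284, 290 and 295. All 3 fasted libraries labelled Nts-/- were below all 3 labelled Nts+/+. In the fed state the values were 9.12, 10.1 and 7.71 CPM in Nts+/+ and 7.20, 9.01 and 5.64 CPM in Nts-/- livers, and these groups overlapped.

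The fasted difference in Zfp970 was -1.07 on the log2 scale (SE 0.22, edgeR quasi-likelihood test, unadjusted p = 0.000275). With Benjamini-Hochberg adjustment over all 13812 genes its adjusted p was 0.917, so it did not pass. In fed livers the log2 difference was -0.30 (SE 0.22, adjusted p = 0.830). Averaged over both feeding states it was -0.69 (SE 0.15, unadjusted p = 0.000586, adjusted p = 0.578), and under DESeq2 the same difference had an adjusted p of 0.0495. The test of whether the genotype difference itself differed between fed and fasted livers gave -0.77 (SE 0.31, unadjusted p = 0.0263, adjusted p = 0.897).

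Gm14403 (ENSMUSG00000094786, chr2:177498215-177509763), a predicted gene that begins downstream of Zfp970, had a like pattern while sharing only 8.86% of its stretches with any other gene. Its fasted values were 7.45, 4.73 and 6.05 CPM in Nts+/+ livers and 2.11, 2.08 and 2.91 CPM in Nts-/- livers, again without overlap. Its fed values were 4.51, 5.22 and 4.61 CPM in Nts+/+ and 5.56, 5.47 and 2.70 CPM in Nts-/- livers, where only mouse 319 lay apart from the rest.

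In fasted livers the log2 difference by genotype in Gm14403 was -1.34 (SE 0.27, unadjusted p = 0.000226, adjusted p = 0.917 with edgeR and 0.0535 with DESeq2). In fed livers it was -0.057 (SE 0.26, adjusted p = 0.985), and without mouse 319 it was 0.21, so the fed value had no stable direction. The interaction of genotype with feeding was -1.28 (SE 0.38, unadjusted p = 0.00431, adjusted p = 0.897). With edgeR neither gene passed the test for genotype, and with DESeq2 Zfp970 passed in the averaged comparison.

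**Figure D1:**
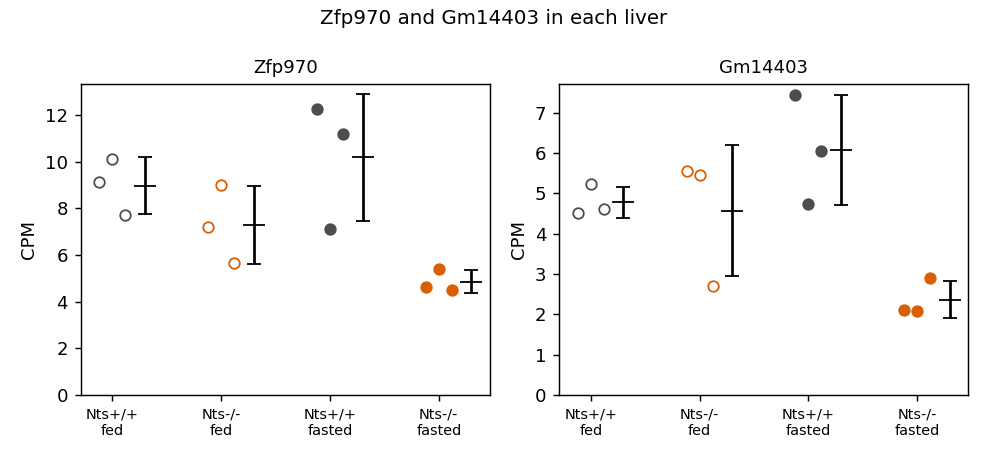
CPM of Zfp970 (left) and Gm14403 (right) in each of 12 livers by labelled genotype and feeding state, with open points for fed and filled points for fasted mice, and black bars for mean ± SD (n = 3). The 3 fasted livers labelled Nts-/- lie between 4.51 and 5.41 CPM for Zfp970 and between 2.08 and 2.91 CPM for Gm14403, below every fasted Nts+/+ liver.

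Over the 12 mice the log2 CPM of Zfp970 and Gm14403 had a Pearson correlation of 0.90, which is a description over libraries that share depth and group. Their summed level was 13.8 ± 1.51 CPM in Nts+/+ fed, 11.9 ± 3.17 in Nts-/- fed, 16.3 ± 4.04 in Nts+/+ fasted and 7.21 ± 0.417 in Nts-/- fasted livers (SD, n = 3 each). Among all tested genes, the closest to Zfp970 were Zscan29 (r = 0.92), Gm14403 (0.90), Cep152 (0.88), Ube2b (-0.85) and Gm12953 (-0.85). Zscan29 is another zinc finger gene of chromosome 2, outside the window, and Cep152 encodes a centriole protein. The closest to Gm14403 were 2700097O09Rik (-0.92), Hnrnpa0 (-0.90), Zfp970 (0.90), Zfp646 (0.90) and Adamtsl5 (0.89).

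In bulk liver, fewer cells of a type and less RNA per cell cannot be told apart. In the fasted groups the 8 hepatocyte markers summed to between 123086 and 150096 CPM in Nts+/+ and between 126224 and 133322 CPM in Nts-/- livers. The 6 Kupffer cell markers summed to between 201 and 349 CPM in Nts+/+ and between 261 and 404 CPM in Nts-/- livers, and the 7 lymphocyte markers to between 5.09 and 5.22 and between 4.35 and 8.66 CPM. No marker of these lists was at 0 in all livers, and the ranges of the 2 genotypes overlapped in fasted livers. In fed livers the Kupffer cell markers summed to between 408 and 483 CPM in Nts+/+ and between 250 and 349 CPM in Nts-/- livers, without overlap. By genotype 0 of the 6 had a log2 difference above 0 in fed livers (median -0.50), 4 of 6 did in fasted livers (median 0.21), and 6 of 6 had an interaction above 0 (median 0.80), while 0 of 6 passed in any of these. The part of these cells in the genotype values of the cluster was not tested.

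The rest of the cluster was then compared by genotype. In fed livers 0 of the 32 tested members passed an adjusted p of 0.05, as did 0% of all genes tested, and 0 members had an unadjusted p under 0.05, against 6.34% of all genes. DESeq2 called 12 genes of the whole table in this comparison and 0 members. In fasted livers 0 members passed with edgeR, again with 0% of all genes, and 3 had an unadjusted p under 0.05 (9.38% of members and 4.96% of all genes). DESeq2 called 1 gene of the table in fasted livers and 0 members. The 3 were Zfp970, Gm14403 and Gm14434. The averaged comparison gave the same counts, with 0 members and 0% of all genes passing, and 3 members under an unadjusted p of 0.05, against 6.22% of all genes. DESeq2 called 15 genes there, 1 of them a member, Zfp970. For the interaction 0 members and 0% of all genes passed, and 2 members, Zfp970 and Gm14403, had an unadjusted p under 0.05, against 4.8% of all genes.

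The signs of the differences shifted between feeding states. In fed livers 24 of 32 members (75%) had a log2 difference above 0, against 51.8% of all genes, with a median of 0.26 over members and 0.010 over all genes. In fasted livers 12 of 32 (37.5%) were above 0, against 48.3% of all genes, with a median of -0.23 over members and -0.0087 over all genes. In the averaged comparison 17 of 32 (53.1%) were above 0, against 49.7% of all genes. Members that share reads are not independent of each other, so these counts describe the cluster and were not tested. Over 335 other tested genes with a Zfp symbol, the medians were 0.022 in fed and -0.11 in fasted livers. Of these 335, 178 were above 0 in fed and 101 in fasted livers, so the fasted tilt below 0 was not particular to the cluster. Over 127 other tested genes within 10 Mb of the window the medians were -0.038 in fed and -0.00069 in fasted livers, with 55 and 63 above 0.

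**Figure D2:**
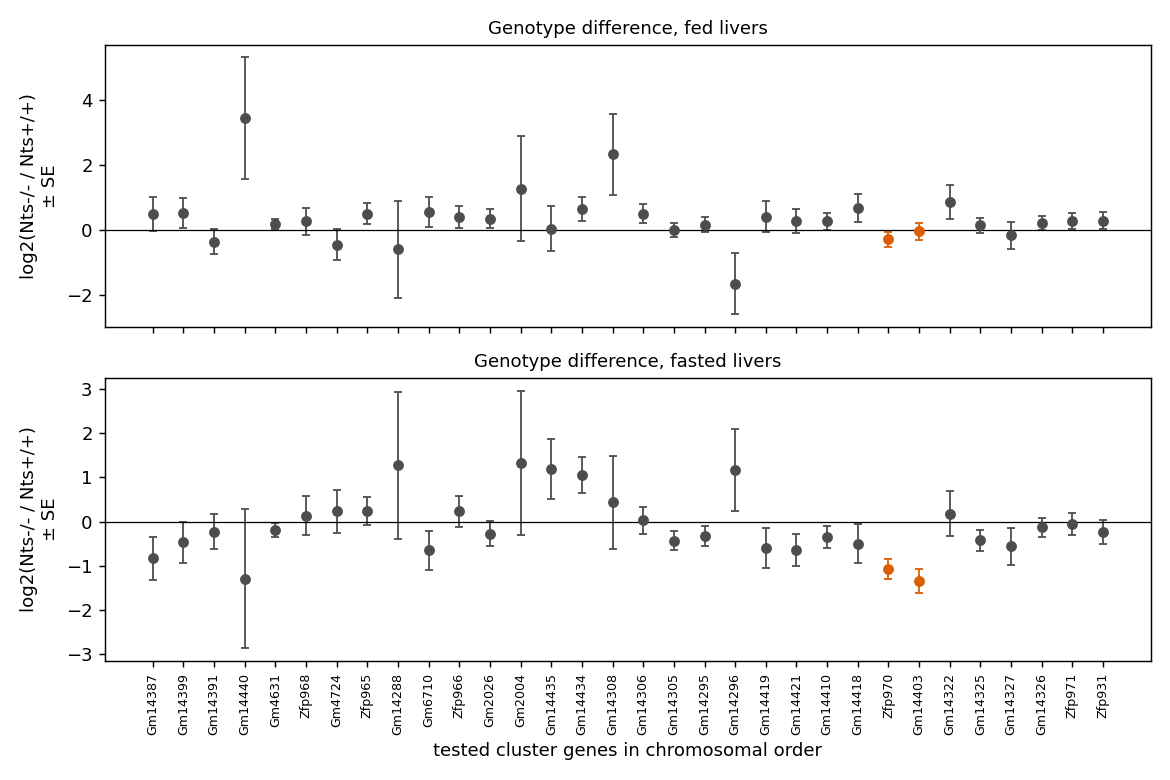
Log2 difference between livers labelled Nts-/- and Nts+/+ (vertical axes) for the 32 tested members in chromosomal order, in fed (top) and fasted (bottom) livers. Points carry SE bars computed from the edgeR test statistic. Zfp970 and Gm14403, in orange, lie at -1.07 and -1.34 in fasted livers with short bars, while Gm14440, Gm14288 and Gm2004 have the widest bars.

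Groups that did not overlap were also counted. In fed livers this held for 1 of 32 members, against 10.7% of all genes, and that member was Gm14296, with the Nts-/- livers lower, as in 5.85% of all genes. In fasted livers it held for 7 of 32 (21.9%), against 12.2% of all genes. Lower in every fasted liver labelled Nts-/- were 4 members (12.5%, against 6.88% of all genes), namely Zfp970, Gm14403, Gm14305 and Gm14325. Higher were 3 members (9.38%, against 5.29% of all genes), namely Zfp965, Gm14434 and Gm14435. Gm14305 was at 5.60, 4.50 and 4.18 CPM in Nts+/+ and at 3.66, 3.51 and 3.35 CPM in Nts-/- fasted livers, a log2 difference of -0.44 (SE 0.22, adjusted p = 0.917). Gm14325 was at 6.21, 4.96 and 5.32 against 4.58, 4.37 and 3.35 CPM, a log2 difference of -0.43 (SE 0.23, adjusted p = 0.917). Both stood far nearer to no change than Zfp970 and Gm14403 did.

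Among members higher in the fasted livers labelled Nts-/-, Gm14434 was at 1.19, 1.30 and 1.39 CPM, against 0.380, 0.694 and 0.759 CPM in Nts+/+ (log2 difference 1.05, SE 0.40, adjusted p = 0.917). Gm14435 was at 1.65, 1.82 and 1.94 CPM against 0.38, 0.53 and 1.38 CPM, with a log2 difference of 1.18 (SE 0.69, adjusted p = 0.917) that ran from 0.89 to 1.96 without 1 mouse, highest without 322. Gm14434 shares 100% and Gm14435 95.7% of its stretches with others. Zfp965 was at 1.83, 1.52 and 1.56 against 1.47, 1.32 and 1.36 CPM, a log2 difference of 0.24 (SE 0.32, adjusted p = 0.950), so its separation was small beside its error.

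Among the members too low to test, Gm14416 was at 0 in all 3 fasted livers labelled Nts-/-. In Nts+/+ fasted livers it averaged 0.335 ± 0.292 CPM (SD, n = 3), which is at least 2.97-fold higher when 3 counts per library are taken as the floor in the other group. This bound rests on mouse 265 and was 1.51-fold without it. Of its stretches 87.6% were shared with other genes, most with Gm1980, which fell just under the minimum.

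In fed livers the largest fitted genotype differences belonged to members whose values jumped between livers of one group. Gm14440 had a log2 difference of 3.43 (SE 1.86, adjusted p = 0.795) in fed and -1.29 (SE 1.56, adjusted p = 0.948) in fasted livers. Its partner Gm14288 went the other way, at -0.61 (SE 1.5) and 1.27 (SE 1.66). Gm14308 had 2.32 (SE 1.25, adjusted p = 0.791) and Gm2004 had 1.25 (SE 1.62) in fed livers. None of these passed, and single mice moved them widely. Without 1 mouse the fed difference ran from 2.65 to 9.75 for Gm14440 (highest without mouse 254), from 1.64 to 3.76 for Gm14308 (257), from 0.093 to 6.17 for Gm2004 (254) and from -2.09 to -0.12 for Gm14288 (highest without 319). The fasted difference ran from -2.20 to -0.63 for Gm14440 (lowest without 284, highest without 295) and from 0.42 to 7.21 for Gm14288 (highest without 265).

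Gm14288 (chr2:175789357-175801093) and Gm14440 (chr2:175275125-175286805) are not neighbours, yet 95.7% of the stretches of Gm14288 occur in Gm14440. In Nts+/+ fed livers Gm14288 had 109, 129 and 149 counts while Gm14440 had 27, 0 and 0. In Nts+/+ fasted livers Gm14288 had 82, 0 and 1 counts and Gm14440 had 28, 181 and 208. In 257, 323, 282 and 322 one copy held nearly all counts, and in 254 and 265 both copies had counts.

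The split also varied among the livers labelled Nts-/-. In fed livers Gm14288 had 68, 214 and 13 counts and Gm14440 had 257, 0 and 109. In fasted livers Gm14288 had 0, 72 and 216 counts and Gm14440 had 77, 49 and 0. The share of Gm14288 in the sum of both ran from 80.1% to 100% in Nts+/+ fed livers, from 0% to 74.5% in Nts+/+ fasted livers, from 0% to 100% in Nts-/- fasted livers and from 10.7% to 100% in Nts-/- fed livers.

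The sum of both was far steadier. It lay between 3.53 and 8.60 CPM over 12 livers, a 2.44-fold range, with 5.46 ± 1.00 CPM in Nts+/+ fed, 7.09 ± 1.93 in Nts-/- fed, 5.62 ± 0.384 in Nts+/+ fasted and 4.62 ± 0.951 in Nts-/- fasted livers (SD, n = 3 each). The log2 ratios by genotype of the sum were 0.38 in fed and -0.28 in fasted livers. Neither gene's fitted difference is a measure of the pair.

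The levels of Gm14296 (ENSMUSG00000074527, chr2:176892509-176927809) and of the neighbour 2210418O10Rik, which holds 39.9% of the stretches of Gm14296, also varied between livers. Of the stretches of Gm14296, 42% are shared with any other gene, fewer than the 99.7% of Gm14288. Whether reads moved between the 2 genes or their expression differed was not tested. In Nts+/+ fed livers Gm14296 had 238, 354 and 314 counts and 2210418O10Rik had 207, 23 and 175. In Nts+/+ fasted livers Gm14296 had 6, 200 and 178 counts and 2210418O10Rik had 527, 587 and 489. Gm14296 was lowest in mouse 265, and 2210418O10Rik was lowest in mouse 257.

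In the fed livers labelled Nts-/-, Gm14296 had 114, 53 and 159 counts and 2210418O10Rik had 565, 799 and 281. In the fasted ones Gm14296 had 33, 336 and 447 counts and 2210418O10Rik had 518, 158 and 513. The fed difference by genotype in Gm14296 was -1.67 (SE 0.94, adjusted p = 0.80), with no overlap between groups, and that in 2210418O10Rik was 1.77 (SE 0.74, adjusted p = 0.774). Gm14296 alone spanned a 51.1-fold range over the 12 livers, and a 9.62-fold range without mouse 265, while the sum of both spanned 13.9 to 30.8 CPM, a 2.22-fold range.

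**Figure D3:**
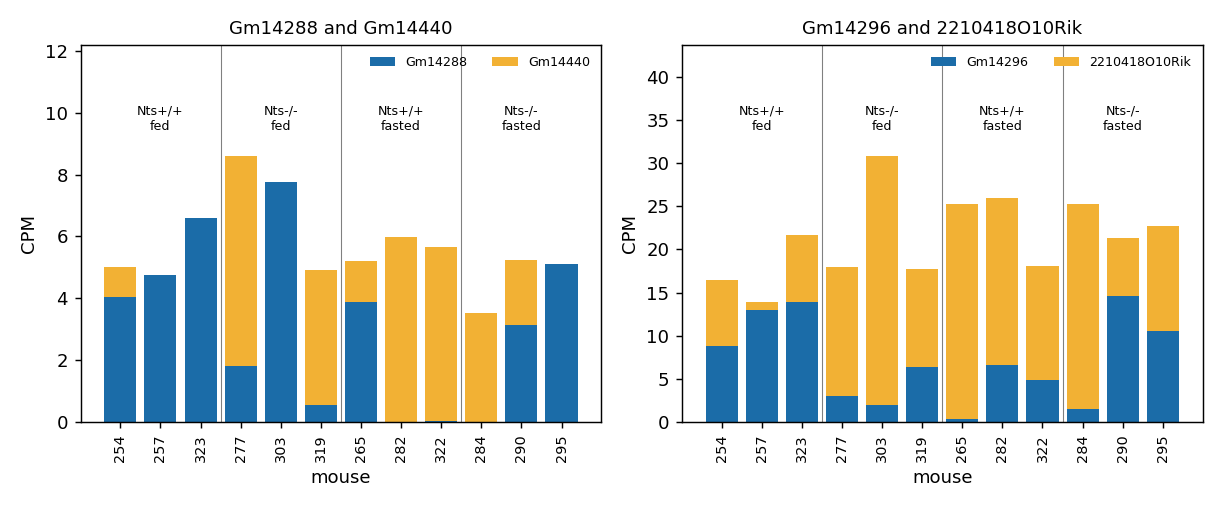
CPM of Gm14288 and Gm14440 (left) and of Gm14296 and 2210418O10Rik (right), stacked for each of 12 mice in labelled groups. The share of each gene in the stack changes from mouse to mouse, also within a group. The stacked height stays between 3.53 and 8.60 CPM on the left and between 13.9 and 30.8 CPM on the right.

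The spread between livers of one group was wider in the cluster than elsewhere. The within-group SD of log2 CPM had a median of 0.52 over the 32 tested members (range 0.20 to 2.72), 0.24 over all tested genes and 0.26 over the other tested Zfp genes. Among genes with a mean of 1 CPM or more, the medians were 0.40 over 27 members and 0.21 over 11855 genes. The gap was thus also present without the lowest genes, but the 2 sets were not matched for level above that limit. Above that limit, 3 of 27 members had an SD above 1, against 1.24% of all genes, and these were Gm14440, Gm14288 and Gm14296. At least 1 liver had 0 counts for 4 of 32 members (12.5%), against 1.92% of all tested genes, and these 4 were Gm14440, Gm14288, Gm2004 and Gm14308. Zfp970 and Gm14403 had an SD of 0.29 and 0.36.

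**Figure D4:**
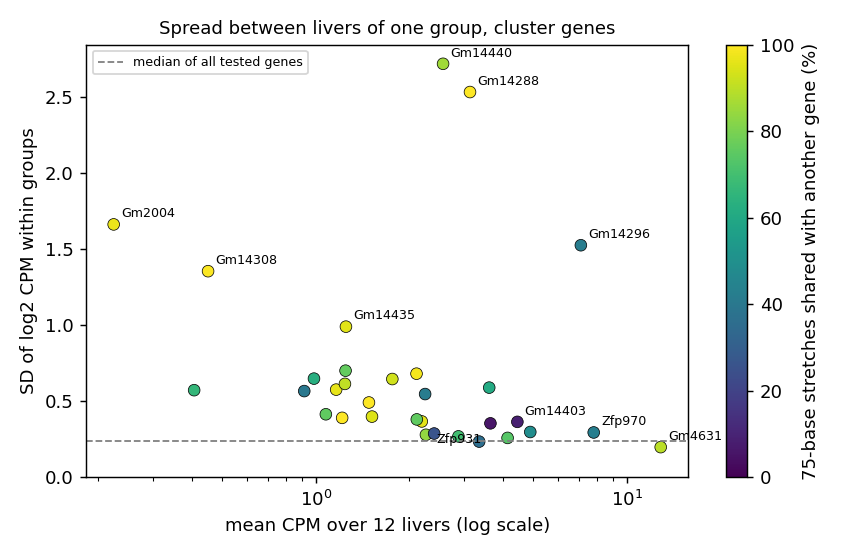
Within-group SD of log2 CPM against mean CPM over 12 livers (log scale) for the 32 tested members, coloured by the percentage of 75-base stretches shared with another gene, with a dashed line at the median SD of all tested genes (0.24). Gm14440 and Gm14288 lie highest, and Gm4631 lies lowest at 0.20 with 89.5% of its stretches shared.

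When members that shared at least 50% of their stretches were summed before testing, the 48 members became 26 features, 6 of them made of more than 1 gene and the largest of 9. Of these, 16 could be tested, and 0 passed for genotype in fed livers, fasted livers or their average. The feature of 9 genes that holds Gm4631 differed by 0.15 (SE 0.15) in fed and -0.16 (SE 0.15) in fasted livers on the log2 scale. This summing was chosen after the values were seen.

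Fasting was then compared with the fed state. In Nts+/+ livers 2 of 32 members passed an adjusted p of 0.05, against 18.1% of all genes, with 1 higher after 22 h without food, against 8.91% of all genes, and 1 lower, against 9.19%. In the livers labelled Nts-/- 1 of 32 passed, against 16.8% of all genes. It was lower, as were 9.14% of all genes, and 0 members were higher, against 7.7% of all genes. Log2 changes above 0 were seen in 21 of 32 members (65.6%) in Nts+/+ livers, against 49.8% of all genes, and in 10 of 32 (31.2%) in Nts-/- livers, against 48.9%. The median log2 change over members was 0.19 in Nts+/+ and -0.24 in Nts-/- livers, and over all genes it was -0.0032 and -0.011. Of the 335 other tested Zfp genes, 158 were above 0 in Nts+/+ livers (median -0.029) and 107 in Nts-/- livers (median -0.17). The tilt below 0 in Nts-/- livers was therefore also present in Zfp genes outside the cluster. An unadjusted p under 0.05 was seen in 7 of 32 members (21.9%) in Nts+/+ livers, against 32.5% of all genes. In Nts-/- livers it was seen in 5 of 32 (15.6%), against 31.7%. The within-group SD of the members was larger than that of all genes, and its part in the number of members called was not tested.

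The 2 members called in Nts+/+ livers were near-identical copies that moved in opposite directions. Gm2026 (chr2:175965331-175980303) rose, from 1.33, 0.920 and 1.64 CPM in fed to 2.80, 3.40 and 3.36 CPM in fasted livers (log2 change 1.31, SE 0.30, edgeR adjusted p = 0.00893). Gm14434 (chr2:176473278-176486783) fell, from 1.14, 1.88 and 1.73 CPM to 0.380, 0.694 and 0.759 CPM (log2 change -1.33, SE 0.40, adjusted p = 0.0354). Neither pair of groups overlapped.

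These 2 genes have the same promoter sequence, and 88.5% of the stretches of Gm2026 occur in Gm14434. Their summed level was 2.88 ± 0.453 CPM in fed and 3.80 ± 0.538 CPM in fasted Nts+/+ livers (SD, n = 3), a log2 ratio of 0.40, and the groups overlapped. With Gm14308 and Gm4724, which have the same promoter, added, the sum was 5.68 ± 1.61 CPM in fed and 6.03 ± 0.487 CPM in fasted Nts+/+ livers. The log2 ratio of that sum was 0.087. When members that share reads were merged, these 4 fell into a feature of 9 genes that also holds Gm4631. That feature averaged 24.7 CPM in fed and 26.6 CPM in fasted Nts+/+ livers. Its test cannot decide on the copies alone, since other genes make up most of it. Of all merged features, 0 passed for fasting in Nts+/+ livers. Without mouse 257 or 265, 1 member passed in Nts+/+ livers, and without 323 or 322, 3 passed. The call for Gm14434 depended on single mice, with an adjusted p of 0.110 without mouse 257, 0.0756 without 323, 0.106 without 265 and 0.0835 without 282.

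In the livers labelled Nts-/- the corresponding changes were 0.69 (SE 0.29, adjusted p = 0.119) for Gm2026 and -0.90 (SE 0.37, adjusted p = 0.112) for Gm14434. The sum of both had a log2 ratio of -0.046 there. Gm2026 was at 1.67, 1.34 and 1.89 CPM in fed and 3.76, 1.73 and 2.46 CPM in fasted livers of that label, and these groups overlapped.

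**Figure D5:**
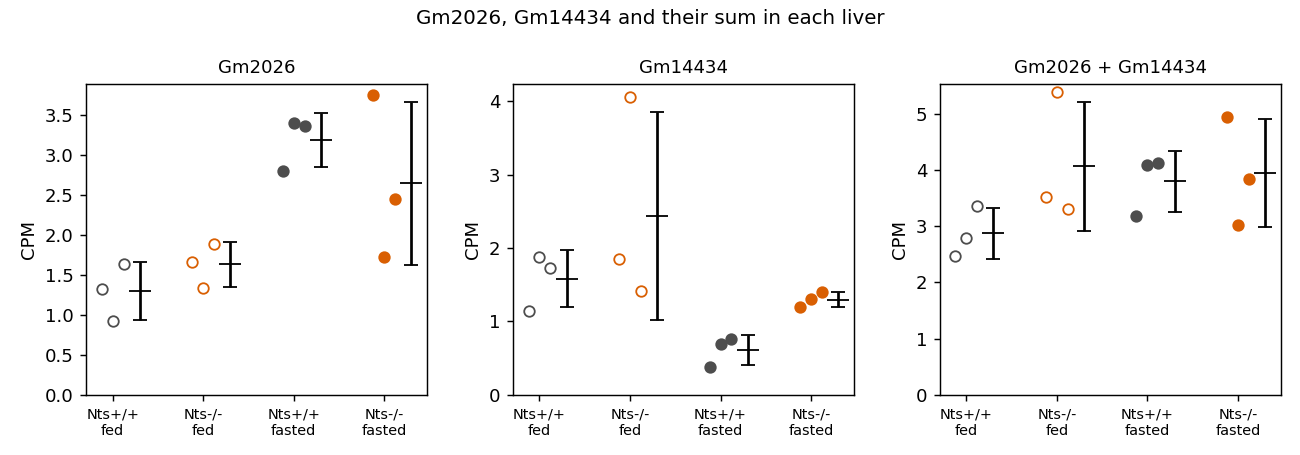
CPM of Gm2026 (left), Gm14434 (middle) and their sum (right) in each of 12 livers by labelled genotype and feeding state, with open points for fed and filled points for fasted mice, and black bars for mean ± SD (n = 3). In Nts+/+ livers Gm2026 is higher and Gm14434 lower after fasting without overlap, while the sums overlap.

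The member called in the livers labelled Nts-/- was Gm14403, which fell after fasting (log2 change -0.94, SE 0.27, adjusted p = 0.0291). In Nts+/+ livers its change was 0.34 (SE 0.26, adjusted p = 0.399). The difference between these responses is the interaction given above, which did not pass after adjustment. The call was lost without mouse 277 (adjusted p = 0.127), 303 (0.105), 284 (0.0978) or 290 (0.102), where in each case 1 other member passed in its place, and it was lost with only these 6 livers in the fit (0.0618). Without mouse 319, 4 members passed, and without mouse 295, 2 passed. Zfp970 changed by -0.59 (SE 0.22, adjusted p = 0.0837) in the same livers, and by 0.18 (SE 0.22, adjusted p = 0.606) in Nts+/+ livers.

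The partners through which KRAB zinc finger proteins act were read from a fixed list of 30 corepressor and silencing genes, all of them tested. By genotype 0 of 30 passed in fed, fasted or averaged livers, with medians of 0.0071, -0.042 and -0.00020 on the log2 scale. The 3 with the smallest p-values in the averaged comparison were Fam208a, which encodes the TASOR subunit of the HUSH silencing complex (log2 difference 0.45, SE 0.12, adjusted p = 0.760), Mta2 of the NuRD complex (-0.21, SE 0.08, adjusted p = 0.760), and Cbx3, a heterochromatin protein 1 gene (0.25, SE 0.12, adjusted p = 0.788). Trim28 itself was between 48.4 and 67.4 CPM in all 12 livers.

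After fasting, 5 of the 30 passed in Nts+/+ livers, 1 higher and 4 lower, where 18.1% of all genes passed. Dnmt1, the maintenance DNA methyltransferase, fell by 0.69 on the log2 scale (SE 0.18, adjusted p = 0.0170), and Uhrf1, which brings DNMT1 to replicating DNA, fell by 2.47 (SE 0.76, adjusted p = 0.0376). Uhrf1 had 18, 12 and 5 counts in Nts+/+ fed livers. Its fasted counts were 1, 0 and 6 in Nts+/+ and 3, 1 and 3 in Nts-/- livers. Most of these fasted counts lie at or under the floor of 3 counts, so the sizes of its changes are uncertain. Cbx1, a heterochromatin protein 1 gene, fell by 0.46 (adjusted p = 0.0222) and Rbbp4, a histone chaperone, by 0.58 (adjusted p = 0.0259). Pphln1, which encodes the periphilin subunit of the HUSH complex, rose by 0.55 (adjusted p = 0.0244). In the livers labelled Nts-/-, where 16.8% of all genes passed, 2 of 30 did, Dnmt1 (-0.82, SE 0.18, adjusted p = 0.00704) and Uhrf1 (-2.76, SE 0.74, adjusted p = 0.0215). Both of these genes are also expressed with cell division. Of 9 listed KRAB zinc finger repressors from other chromosomal regions, 8 were tested, 0 passed by genotype, and 1, Zfp568, passed after fasting in Nts+/+ livers (0.51, SE 0.17, adjusted p = 0.0471).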

How the data were processed

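Bulk RNA-seq of snap-frozen liver from 12 mice in 4 groups of 3 was analysed. The authors deposited one table of gene-level expected counts, not normalised, which per the submitters' processing notes came from Trimmomatic and RSEM with build GRCm38. The versions, annotation release and strand setting are not given in the sources used here. RSEM shares reads that match several genes between them, which bears directly on this cluster. Expected counts were rounded to whole numbers.

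Genes were filtered with filterByExpr, scaled with TMM and fitted with edgeR 4.0.16 (robust quasi-likelihood, R 4.3.3) in one model with a mean per group over 12 mice, with 6 contrasts. P-values were two-sided and adjusted by Benjamini-Hochberg over 13812 genes. The edgeR test gives no SE, so each SE was computed as the absolute log2 difference divided by the square root of the F statistic. DESeq2 1.42.0 was the alternative test. CPM are TMM-scaled. The within-group SD used log2 CPM with a prior count of 2. Library totals ran from 21999647 to 45273069 counts, and a floor of 3 counts covers counting error only. Groups and mouse numbers came from the labels. The fit was tested on simulated data.

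The members and lists were chosen with earlier results of these data known. Genes named were Zfp970 and Gm14403, members past the threshold in any contrast, the 10 with the highest mean CPM, the 3 largest differences in each direction by genotype, members nearest the count minimum, the 5 genes most correlated with each of the first pair, 3 corepressor genes with the smallest p-values, and Nts. Members singled out for not overlapping, for zeros or for shared sequence, and Gm14416, 2210418O10Rik and the listed genes past the threshold, were named after their values were seen. Sharing of sequence was counted over 75-base stretches of GENCODE vM39 transcripts, and promoters were taken from RefSeq.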

Additional observations from a re-analysis of the deposited data

How the results depend on the processing

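Besides DESeq2, the fit was repeated with RLE or upper-quartile scaling, with the filter dropped or raised to 10 counts per mouse, within the compared groups alone, at an adjusted p of 0.10, without each mouse and, added after the data were seen, summing members that share reads. No paired analysis was possible because no mouse number is shared between groups. With DESeq2 the members called were 1 for the averaged genotype difference (Zfp970, -0.69, adjusted p = 0.0495) and 2 for fasting in Nts-/- livers, and the whole table had 12, 1 and 15 genes called in fed, fasted and averaged livers in place of 0. Without a count filter 2 members were called for fasting in Nts-/- livers, and 1 gene of the table in fed and 1 in averaged livers. With at least 10 counts in every mouse, 1 member was called for fasting in Nts+/+ livers. With only the mice compared, 1 gene of the table was called in fasted livers and 0 members for fasting in Nts-/- livers. At an adjusted p of 0.10 the members called for fasting were 5 in Nts+/+ and 2 in Nts-/- livers, and 1 gene of the table was called in averaged livers. With members that share reads summed, 0 features were called for fasting in Nts+/+ livers. The cause was not tested for any of these shifts. Leaving out single mice gave 1 to 3 members called for fasting in Nts+/+ livers and 1 to 4 in Nts-/- livers, and 0 to 2 genes of the table in fed and 0 to 4 in averaged livers, where the counts above 0 came without mouse 323 or 319.

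The genotype differences of Zfp970 and Gm14403 in fasted livers kept their direction without any mouse, from -1.27 to -0.93 and from -1.53 to -1.18, and their adjusted p-values ranged from 0.0669 to 0.999 and from 0.0535 to 0.999 over all alternatives. The fed difference of Gm14403 changed sign, from -0.22 to 0.21. The averaged genotype difference changed sign for Gm4631 (-0.075 to 0.055), Gm14296 (-0.55 to 0.028), Zfp931 (-0.11 to 0.20), Gm14326 (-0.047 to 0.12) and Gm14288 (-0.41 to 3.30), each main value lying near 0 beside its error. Depth limits the 16 untested members, whose means were at most 0.270 CPM.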
